A study of Mus musculus with 31 samples.

Results

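Among the genes measured in these livers 8 encode transcription factors that set and maintain hepatocyte identity, and their RNA levels are described here across the study's 8 sample groups. The members are Hnf4a, Foxa1, Foxa2, Foxa3, Cebpa, Prox1, Nr5a2 and Onecut2, which are 8 of the 17097 genes on the array that a probe set represents. They were chosen by name, with earlier results of these data known, so counts among them are descriptive and no independent test. Each was read from the probe set that the array annotation assigns to that gene alone and whose mean over all 31 arrays was highest. All 8 passed the filter on dim probe sets in every comparison.

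Hepatocytes keep their character through a network of factors that bind the same liver enhancers and regulate one another's genes. HNF4A is a nuclear receptor that drives genes of lipoprotein assembly, clotting and bile acid handling. C/EBPα, made from Cebpa, is a leucine zipper protein of glucose, urea and lipid metabolism. FOXA1, FOXA2 and FOXA3 are forkhead proteins, and FOXA1 and FOXA2 open closed chromatin when the mouse liver is specified. PROX1 is a homeobox protein of early hepatoblasts that also represses HNF4A-driven genes and marks lymphatic endothelium. NR5A2, also called LRH-1, is a nuclear receptor of bile acid and cholesterol genes, and ONECUT2 is a cut-homeodomain protein that shares targets with its paralog ONECUT1. The study addressed the endoplasmic reticulum (ER) stress sensor IRE1α, whose gene is Ern1, and XBP1, the factor made from the mRNA that IRE1α splices.

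Total RNA was taken from livers of male mice, and the labels number the arrays of a group as biological replicates. In the first experiment, Xbp1 ko mice (n = 4) were set against their WT littermates (n = 4), all on c57BL/6, fed and aged 14 weeks. The second experiment held only Xbp1 ko mice, on c57BL/6 and aged 9 weeks, whose livers were taken 8 days after they had received IRE1 siRNA (n = 4) or luciferase siRNA (n = 4). The last experiment held Ire1 ko mice 6 h after 2 mg/kg tunicamycin (n = 4), WT mice given the same dose (n = 4), untreated fed Ire1 ko mice (n = 3) and untreated fed WT littermates (n = 4), all aged 14 weeks. Tunicamycin blocks N-glycosylation and so loads the ER with misfolded proteins. This experiment held no group labelled as given a vehicle, and only its untreated groups are described here as fed. Effects of tunicamycin, of handling and of feeding therefore cannot be told apart in the comparisons of treated with untreated mice. The labels give a mixed strain for the Ire1 ko mice and C57BL/6 for the WT mice, so that the effects of Ire1 genotype and of strain cannot be told apart. Which part of Xbp1 or Ern1 was deleted, and in which cells, is not given in the sources used here.

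The deposited values are probe set intensities, a brightness on a linear scale, with a lowest value of 3 and a median of 5. On each array 19.8% to 22.98% of all probe sets were at 16 or above, the level below which fold changes are compressed. The targeted genes were read first. Xbp1 was 404 to 567 in Xbp1 ko livers, against 807 to 1140 in WT littermates, a gap with no overlap and with a log2 difference of -1.01 (SE 0.14, adjusted p = 0.008716 by limma with Benjamini-Hochberg adjustment over all genes tested, as for every adjusted p that follows). Ern1 stood at 169 to 236 on the arrays labelled IRE1 siRNA, against 18 to 35 on those labelled luciferase siRNA, which is opposite to the labels (log2 difference 3.11, SE 0.22, adjusted p = 0.0007544). These 2 groups are therefore called by their labels only, and every direction drawn between them depends on those labels. In untreated Ire1 ko livers Ern1 lay between 148 and 153, against 121 to 203 in untreated WT livers, so this probe set does not check the Ire1 genotype. All 9 hepatocyte markers examined had a mean intensity of at least 16, and their summed intensity lay between 35159 and 42724 on all 31 arrays. None of the 6 cholangiocyte, 5 lymphocyte, 4 neutrophil and 5 pancreas markers measured reached a mean of 16.

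The start regions of Cebpa and the 3 Foxa genes are shown, because Cebpa fell and the Foxa genes moved in different directions after tunicamycin. Each window runs from 250 bases before to 50 bases after a start in the RefSeq table (GRCm38.p6), is written 5′ to 3′ on the gene's strand, and has 300 bases. Cebpa lies on the plus strand at chr7:35119043-35119342. Foxa1 is on the minus strand at chr12:57546062-57546361, Foxa2 on the minus strand at chr2:148046920-148047219, and Foxa3 on the minus strand at chr7:19023490-19023789. The Cebpa, Foxa2 and Foxa3 windows are placed at the outer start of the gene, whereas the Foxa1 window lies inside the gene's annotated span. Capitals mark matches, on either strand, to the short motifs spelled out after the sequences.
Cebpa: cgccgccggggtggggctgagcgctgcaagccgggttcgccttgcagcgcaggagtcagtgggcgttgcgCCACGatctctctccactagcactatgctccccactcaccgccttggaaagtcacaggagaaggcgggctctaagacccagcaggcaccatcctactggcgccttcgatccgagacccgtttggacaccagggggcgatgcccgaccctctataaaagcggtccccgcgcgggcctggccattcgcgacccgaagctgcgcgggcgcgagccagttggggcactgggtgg
Foxa1: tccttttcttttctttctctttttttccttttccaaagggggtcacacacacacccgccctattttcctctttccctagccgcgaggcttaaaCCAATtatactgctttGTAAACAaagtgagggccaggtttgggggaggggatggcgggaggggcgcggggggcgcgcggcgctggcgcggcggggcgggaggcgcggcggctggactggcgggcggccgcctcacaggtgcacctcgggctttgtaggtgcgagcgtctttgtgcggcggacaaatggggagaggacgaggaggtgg
Foxa2: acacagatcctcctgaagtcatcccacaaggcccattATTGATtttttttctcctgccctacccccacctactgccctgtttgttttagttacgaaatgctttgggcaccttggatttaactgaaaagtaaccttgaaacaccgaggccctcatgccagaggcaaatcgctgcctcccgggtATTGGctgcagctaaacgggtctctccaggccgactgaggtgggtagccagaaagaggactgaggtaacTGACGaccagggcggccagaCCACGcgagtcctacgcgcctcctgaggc
Foxa3: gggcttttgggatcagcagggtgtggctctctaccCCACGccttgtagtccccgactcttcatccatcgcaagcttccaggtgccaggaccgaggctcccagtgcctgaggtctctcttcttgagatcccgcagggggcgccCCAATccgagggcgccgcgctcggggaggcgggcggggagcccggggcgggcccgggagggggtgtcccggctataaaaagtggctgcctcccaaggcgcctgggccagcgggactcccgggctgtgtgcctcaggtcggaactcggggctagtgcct
CCACG, part of an ER stress element, was found in the Cebpa, Foxa2 and Foxa3 windows, and 32.8% of the 32851 windows in the table hold it on either strand. CCAAT, in 37.4% of all windows, was found in the 3 Foxa windows. TGACG, part of a cyclic AMP response element and held by 20.8% of windows, was found in Foxa2, as was the ONECUT core ATTGAT, held by 7.54%. The Foxa1 window holds the forkhead core TGTTTAC, which 3.65% of windows hold. The basic zipper and helix-loop-helix core ACGTG, in 19.6% of all windows, had no match here and can overlap the first motif. A second forkhead core, TGTTTGC, which 5.07% of windows hold, had none either. The C/EBP core TTGCNNAA, in 10.8%, was also not among these letters. GC content was 67.3% for Cebpa, 62.3% for Foxa1, 54.3% for Foxa2 and 69% for Foxa3, against a median of 52.7% over all windows. Windows were read for 7 of the 8 members, since the chromosome of Onecut2 was left out when member windows were read. The motifs were chosen after the expression values had been seen.

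**Figure D1:**
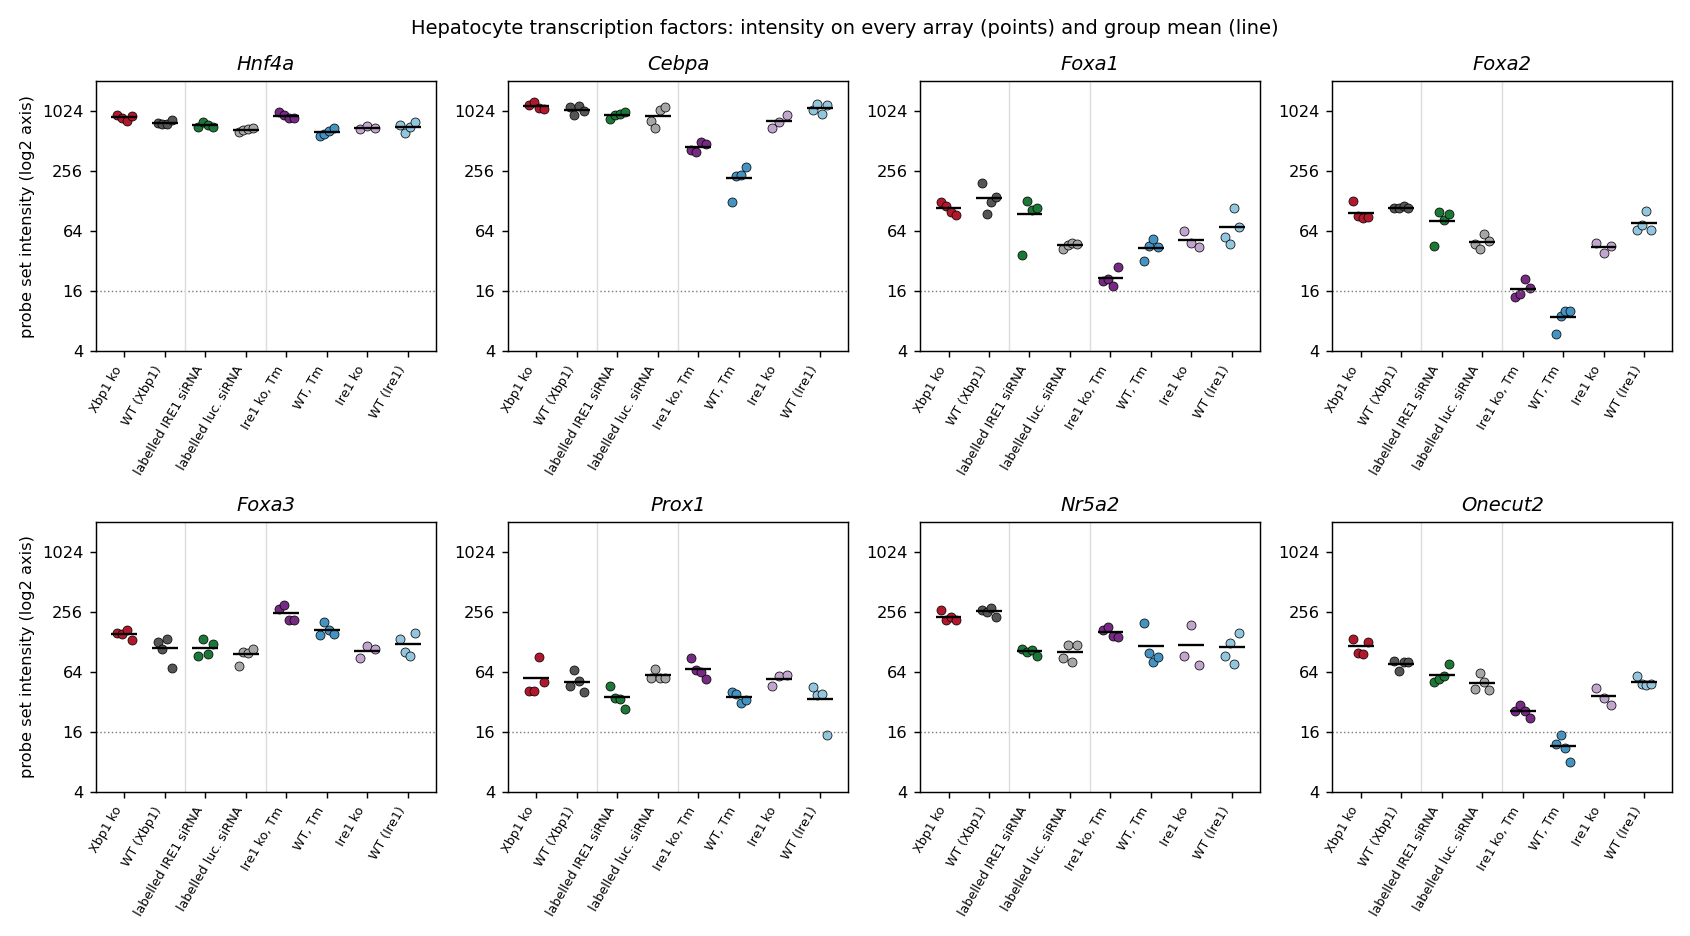
Probe set intensity (log2 axis) of the 8 factors on every array (points), by group, with the group mean as a line. The dotted line marks an intensity of 16, Foxa2 and Onecut2 lie below it on all 4 tunicamycin WT arrays, and grey vertical lines part the 3 experiments.

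The range over groups differed widely between the members, as the plot of all intensities shows. Hnf4a was the steadiest in size: its group means lay between 629 in tunicamycin WT livers and 921.5 in tunicamycin Ire1 ko livers, a span of 1.466-fold. Foxa2 was lowest in tunicamycin WT livers, with a mean of 8.75, and highest in the WT littermates of Xbp1 ko, with a mean of 110.25. Onecut2 averaged 11.5 in tunicamycin WT livers and 114.75 in Xbp1 ko livers, and since both low means are under 16 no fold is given for the spans of these genes. The spans of the others were 6.251-fold for Foxa1, 5.554-fold for Cebpa, 2.601-fold for Foxa3, 2.574-fold for Nr5a2 and 2.136-fold for Prox1. These spans cross experiments that differ in age and handling, so only differences within an experiment were tested.

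Tunicamycin was followed by lower Cebpa, Foxa1, Foxa2 and Onecut2 and higher Foxa3 in WT livers. In Ire1 ko livers Cebpa, Foxa1 and Foxa2 were also lower, and Foxa3 and Hnf4a were higher. Of the 8 members 5 passed the test in WT, with 1 higher and 4 lower, where 36.1% of 15172 genes passed (18.5% higher, 17.6% lower). In Ire1 ko 5 of the 8 passed, with 2 higher and 3 lower, where 27.7% of genes passed (17.4% higher, 10.3% lower). The WT count was 3 without untreated WT replicate 3, 3 without tunicamycin WT replicate 2 and 3 with no filter, where Foxa1 and Foxa3 were lost. The arrays did not overlap for 3 members in WT (30.9% of all genes) and for 5 in Ire1 ko (28.8%). The median log2 difference of the 8 members was -0.42 in WT and -0.09 in Ire1 ko, and that of all genes tested was -0.02 and 0. Among genes with a mean intensity of at least 16 it was -0.03 and 0.09. All genes tested include many dim ones, and the share called among brighter genes alone was not computed. The split of all called genes depends on scaling: when arrays were shifted so that their brighter probe sets had a common median, 2368 genes were higher and 3963 lower in WT, against 2807 and 2677 as deposited. In Ire1 ko that shift gave 1883 higher and 3395 lower, quantile normalization gave 2055 and 2226, and the deposited scale gave 2634 and 1570. The shift moved the median of all genes to -0.14 in WT and -0.18 in Ire1 ko.

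Cebpa, whose protein drives genes of gluconeogenesis, glycogen and lipid synthesis, was the bright member that fell furthest. Its intensity was 124, 231, 235 and 278 in tunicamycin WT livers, against 1059, 1192, 958 and 1181 in untreated WT livers. In tunicamycin Ire1 ko livers it was 413, 394, 499 and 475, against 696, 802 and 927 in untreated Ire1 ko livers. The treated and untreated arrays did not overlap in either genotype, and the treated WT arrays all lay below the treated Ire1 ko arrays. The log2 difference was -2.39 in WT (SE 0.19, adjusted p = 3.459e-08), a 5.256-fold fall, and -0.86 in Ire1 ko (SE 0.2, adjusted p = 0.004119), a 1.812-fold fall. The test of the difference between these responses gave 1.54 (SE 0.28, adjusted p = 0.00207).

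Foxa2, a forkhead factor of liver specification that in adult hepatocytes acts on lipid and bile acid genes, fell to near the floor of the scale in WT livers. It stood at 6, 9, 10 and 10 in tunicamycin WT livers, against 65, 74, 102 and 66 in untreated WT livers. In tunicamycin Ire1 ko livers the values were 14, 15, 21 and 17, against 49, 39 and 45 in untreated Ire1 ko livers. Again the arrays did not overlap, and all treated WT arrays were near the floor of the scale. The log2 difference was -3.14 in WT (SE 0.19, adjusted p = 1.665e-09) and -1.42 in Ire1 ko (SE 0.2, adjusted p = 6.048e-05), and the responses differed by 1.72 (SE 0.28, adjusted p = 0.0008483). Because of the floor the WT fall is a compressed value. With 16 added to every intensity before log2 the difference was -1.89 in WT, -0.88 in Ire1 ko and 1.01 between the responses, each still past the threshold. Cebpa in WT was at -2.30 on that scale, a larger fall than that of Foxa2.

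Onecut2, a cut-homeodomain gene, also fell in WT livers to near the floor. It stood at 12, 15, 11 and 8 in tunicamycin WT livers, against 58, 48, 47 and 48 in untreated WT livers. The values were 26, 30, 26 and 22 in tunicamycin Ire1 ko livers, against 44, 35 and 30 in untreated Ire1 ko livers. The WT groups were far apart, while the Ire1 ko groups met at 30. In WT the log2 difference was -2.16 (SE 0.18, adjusted p = 5.263e-08), and in Ire1 ko it was -0.47 (SE 0.19, adjusted p = 0.07854). The difference between the responses was 1.68 (SE 0.26, adjusted p = 0.0005511), 0.96 with the added 16 and 0.997 with the mean of all probe sets. In Ire1 ko Onecut2 did pass the threshold with quantile normalization (-0.72), with the common median (-0.65), with the filter at 16 (-0.47), with the added 16 (-0.31) and with the mean of all probe sets (-0.74). It also passed without tunicamycin WT replicate 4 (adjusted p = 0.03784) or untreated Ire1 ko replicate 3 (-0.60, adjusted p = 0.04843).

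Its paralog Onecut1, which is not among the 8, encodes HNF6, a regulator of bile duct formation and glucose metabolism genes. Onecut1 read 6, 5, 5 and 7 in tunicamycin WT livers, against 73, 57, 125 and 100 in untreated WT livers. In tunicamycin Ire1 ko livers it was 7, 9, 7 and 7, against 23, 36 and 22 in untreated Ire1 ko livers. The treated arrays of both genotypes were at the floor. The log2 difference was -3.90 in WT (SE 0.22, adjusted p = 9.339e-10) and -1.82 in Ire1 ko (SE 0.24, adjusted p = 2.555e-05), and the treated genotypes differed by 0.39 (adjusted p = 0.2962).

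Foxa1 fell in both genotypes and ended lower in the Ire1 ko. It stood at 32, 45, 53 and 44 in tunicamycin WT livers, against 56, 48, 109 and 70 in untreated WT livers. The values were 20, 21, 18 and 28 in tunicamycin Ire1 ko livers, against 64, 49 and 44 in untreated Ire1 ko livers. The WT groups overlapped and the Ire1 ko groups did not. The log2 difference was -0.65 in WT (SE 0.23, adjusted p = 0.03569) and -1.27 in Ire1 ko (SE 0.25, adjusted p = 0.0009552), and the responses differed by -0.62, which did not pass (SE 0.34, adjusted p = 0.3531, 95% interval -1.33 to 0.10). The WT call was lost without any 1 of 5 arrays: untreated WT replicate 3 (-0.42, adjusted p = 0.1287) or 4 (0.07705), and tunicamycin WT replicate 1 (0.1244), 2 (0.05877) or 4 (0.06126). It was also lost with no filter (0.06152) and in a fit over all 31 arrays (0.05476).

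Foxa3, the third forkhead gene, went the other way. It stood at 150, 201, 168 and 152 in tunicamycin WT livers, against 135, 102, 93 and 156 in untreated WT livers. In tunicamycin Ire1 ko livers it was 272, 298, 213 and 211, against 87, 116 and 108 in untreated Ire1 ko livers. The WT groups overlapped, and every treated Ire1 ko array was above every other array of that experiment. The log2 difference was 0.49 in WT (SE 0.17, adjusted p = 0.03407) and 1.26 in Ire1 ko (SE 0.18, adjusted p = 6.826e-05), with 0.77 between the responses, not past the threshold (SE 0.25, adjusted p = 0.08021). The last value passed with the filter at 16 (adjusted p = 0.0392) and without untreated WT replicate 3 (0.89, adjusted p = 0.04249). The WT call was lost without untreated WT replicate 2 (adjusted p = 0.1041) or 3 (0.1172), without tunicamycin WT replicate 2 (0.1127) or 3 (0.06748), with quantile normalization (0.1015), with the common median (0.0961) and with no filter (0.05445).

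Hnf4a made small moves, and its arrays varied least within groups on the log2 scale among the 8. It stood at 1003, 933, 872 and 878 in tunicamycin Ire1 ko livers, against 674, 733 and 686 in untreated Ire1 ko livers. In tunicamycin WT livers it was 573, 602, 648 and 694, against 747, 620, 701 and 788 in untreated WT livers. Only the Ire1 ko groups were apart. The log2 difference was 0.40 in Ire1 ko (SE 0.09, adjusted p = 0.003175) and -0.18 in WT (SE 0.08, adjusted p = 0.1165), and the responses differed by 0.58 (SE 0.12, adjusted p = 0.008026). With the mean of all probe sets the Ire1 ko value was 0.64. With the common median it was 0.22 (adjusted p = 0.1015) and the WT value -0.30 (adjusted p = 0.01539). The WT value also passed without untreated WT replicate 2 (-0.25, adjusted p = 0.02882).

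Prox1 and Nr5a2 did not pass the test of tunicamycin in either genotype. Prox1 stood at 88, 66, 63 and 54 in tunicamycin Ire1 ko livers, against 46, 58 and 60 in untreated Ire1 ko livers (log2 difference 0.30, 95% interval -0.31 to 0.90). It was 40, 38, 31 and 33 in tunicamycin WT livers, against 45, 37, 38 and 15 in untreated WT livers (0.18, interval -0.38 to 0.74). Both pairs of groups overlapped. Nr5a2 was 167, 182, 146 and 143 in tunicamycin Ire1 ko livers, against 92, 187 and 75 in untreated Ire1 ko livers (0.54, interval -0.15 to 1.24). It was 199, 98, 81 and 89 in tunicamycin WT livers, against 92, 125, 76 and 158 in untreated WT livers (0.01, interval -0.64 to 0.65). Replicate 2 of the untreated Ire1 ko, at 187, set much of this spread: without it the Nr5a2 difference in Ire1 ko was 0.93 (adjusted p = 0.0481).

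**Figure D2:**
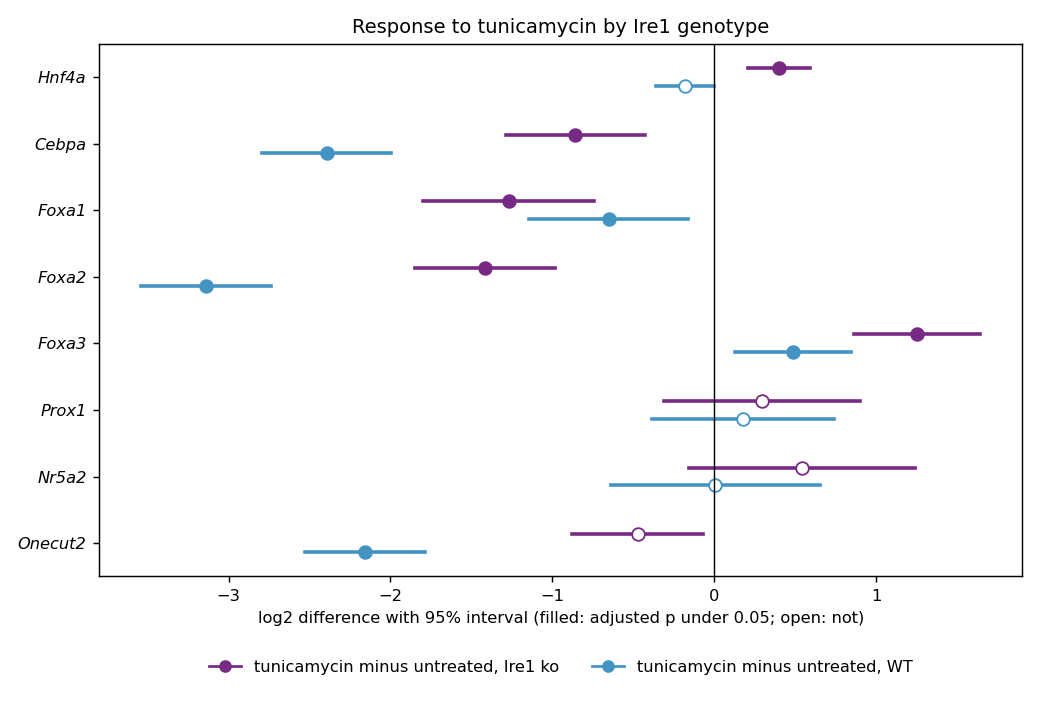
Log2 difference between tunicamycin and untreated livers for each factor, in Ire1 ko (purple) and WT (blue) mice, with 95% intervals from the limma fit. Filled points passed an adjusted p of 0.05, and the intervals of the 2 genotypes are apart for Hnf4a, Cebpa, Foxa2, Foxa3 and Onecut2. For Foxa3 the limma test of the difference between responses did not pass (adjusted p = 0.08021). In the common median scaling the Hnf4a point of Ire1 ko lost its call.

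In the test of the difference between responses (Ire1 ko minus WT) 4 of the 8 members passed, all with positive values: Onecut2, Foxa2, Cebpa and Hnf4a. For Onecut2, Foxa2 and Cebpa this was a smaller fall in the ko, which was lower when untreated (-0.48, -0.77 and -0.45, none called). Foxa2 and Onecut2 were also near the floor in treated WT livers. Over all genes tested 7.53% passed, 3.58% with positive and 3.95% with negative values. The median of the 8 members was 0.67, against 0.05 for all genes and 0.14 for genes with a mean intensity of at least 16. The comparisons of the Ire1 experiment share arrays, so that a tunicamycin response, the genotype difference after treatment and the difference between responses are not independent of each other.

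After tunicamycin, 7 of the 8 members differed between Ire1 ko and WT livers, 6 higher and 1 lower in the ko, and the arrays of these 7 did not overlap between the groups. Among all 15172 genes 18.2% passed, 9.68% higher and 8.5% lower, and 19.5% had groups that did not overlap. The members' median log2 difference was 0.74, against 0.01 for all genes and 0.12 for genes with a mean intensity of at least 16. Onecut2 was 2.304-fold higher in the ko (log2 1.20, SE 0.18, adjusted p = 0.0001039), Cebpa 2.131-fold (1.09, SE 0.19, adjusted p = 0.0005042) and Foxa2 1.93-fold (0.95, SE 0.19, adjusted p = 0.001738). The treated WT means of Onecut2 (11.5) and Foxa2 (8.75) were under 16, where fold changes are compressed. Hnf4a was 1.466-fold higher (0.55, SE 0.08, adjusted p = 0.0001702), and Foxa3 was 1.475-fold higher (0.56, SE 0.17, adjusted p = 0.02933). Foxa1 was the member that went the other way, with 1.996-fold lower intensity in the ko (-0.997, SE 0.23, adjusted p = 0.005331). With 16 added the differences were 0.61 for Onecut2, 0.40 for Foxa2 and -0.65 for Foxa1, each still called, and the mean of all probe sets gave 0.73 for Onecut2.

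Prox1, a co-repressor of HNF4A target genes, was 1.888-fold higher in the tunicamycin Ire1 ko livers (log2 0.92, SE 0.26, adjusted p = 0.02183). Its lowest treated ko array, at 54, was above the highest treated WT array, at 40. Prox1 was also higher in untreated ko livers, by 0.80, without passing (adjusted p = 0.3255). Its responses to tunicamycin differed by only 0.12 (SE 0.39, adjusted p = 0.9135), so the treated gap was not shown to depend on tunicamycin. The call was lost without tunicamycin WT replicate 3 (adjusted p = 0.06577) or 4 (0.05632) or tunicamycin Ire1 ko replicate 1 (0.07946). The Foxa3 call was lost without tunicamycin WT replicate 1 (0.08943), 3 (0.0604) or 4 (0.08204), without tunicamycin Ire1 ko replicate 1 (0.08609) or 2 (0.1006), and with no filter (0.05059). Nr5a2 did not pass (0.54, 95% interval -0.10 to 1.19, adjusted p = 0.2841): its treated ko arrays lay between 143 and 182 and 3 of the 4 treated WT arrays between 81 and 98, with 1 at 199.

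Between the treated genotypes 0 of 7 Kupffer cell, 0 of 8 endothelial and 0 of 9 hepatocyte markers passed (1 Kupffer cell and 1 endothelial marker were higher in the ko with the common median). With tunicamycin in WT some did. The summed intensity of 7 Kupffer cell markers was 377 to 523 in tunicamycin WT livers, against 579 to 1176 in untreated WT livers, and 3 of the 7 passed as lower. In Ire1 ko livers it was 581 to 830 after tunicamycin, against 551 to 1818 untreated, and 0 of the 7 passed. For 8 endothelial markers the sum was 289 to 403 in tunicamycin WT livers, against 424 to 543 in untreated WT livers (1 higher, 4 lower), and 357 to 552 in tunicamycin Ire1 ko livers, against 350 to 503 in untreated Ire1 ko livers (0 higher, 1 lower). The hepatocyte marker sum was 35159 to 35468 in tunicamycin WT livers, against 37443 to 40619 in untreated WT livers, and 1 of the 9 passed as higher and 4 as lower. In Ire1 ko livers it was 37151 to 40146 after tunicamycin, against 35698 to 41871 untreated (1 higher, 1 lower). The treated genotypes thus did not overlap in the hepatocyte sum, nor in the Kupffer cell sum. In whole liver, fewer cells of a type and less RNA per cell cannot be told apart, and the part of cell composition in the members' differences was not tested.

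Untreated Ire1 ko livers differed from WT in none of the 8 members by the test, where 0.943% of genes passed (0.0791% higher, 0.863% lower). An unadjusted p under 0.05 was found for 4 members, and the share of all genes under that cut was not counted. In 4 members the arrays did not overlap, which held for 4.98% of all genes. Foxa2 was 49, 39 and 45 in the ko, against 65, 74, 102 and 66 in WT (log2 difference -0.77, SE 0.2, adjusted p = 0.1042), and it passed when 16 was added to the intensities (-0.61, adjusted p = 0.02285). Cebpa was 696, 802 and 927, against 1059, 1192, 958 and 1181 (-0.45, SE 0.2, adjusted p = 0.4998). These were lower on every ko array than on any WT array, and so was Onecut2, at 44, 35 and 30, against 58, 48, 47 and 48 (-0.48, SE 0.19, adjusted p = 0.4194). Prox1 was higher on every ko array, at 46, 58 and 60, against 45, 37, 38 and 15 (0.80, SE 0.28, adjusted p = 0.3255). Hnf4a (-0.03), Foxa1 (-0.38), Foxa3 (-0.21) and Nr5a2 (0.01) overlapped. The paralog Onecut1 did pass, at 23, 36 and 22 in the ko, against 73, 57, 125 and 100 in WT (-1.69, SE 0.24, adjusted p = 0.00121).

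Loss of Xbp1 was not followed by a called change in any of the 8, where 2.71% of 14008 genes passed (0.642% higher, 2.07% lower). The unadjusted p was under 0.05 for 3 members, again without a count over all genes at that cut. Onecut2 came nearest among them in size, at 138, 98, 96 and 127 in Xbp1 ko livers, against 83, 65, 81 and 80 in WT littermates. It was the 1 member whose arrays did not overlap, as for 7.02% of all genes, with a log2 difference of 0.56 (SE 0.15, adjusted p = 0.1124). Restricting the test to genes with an intensity of at least 16 brought its adjusted p to 0.03002. Foxa3 was 157, 154, 169 and 134 in the ko, against 126, 108, 138 and 70 (0.51, SE 0.2, adjusted p = 0.2969). Hnf4a was 937, 881, 818 and 915, against 773, 760, 760 and 842 (0.18, SE 0.06, adjusted p = 0.2033). Each pair of groups met, Foxa3 at 134 and 138 and Hnf4a at 818 and 842.

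The other members of the Xbp1 comparison stayed within narrow intervals or wide noise. Cebpa differed by 0.14 (95% interval -0.04 to 0.32), Nr5a2 by -0.18 (-0.40 to 0.05) and Prox1 by 0.07 (-0.56 to 0.71). Foxa1 was 125, 115, 100 and 92 in Xbp1 ko livers, against 196, 95, 124 and 140 in WT littermates (-0.32, interval -0.81 to 0.17). Foxa2 was 127, 91, 87 and 88 in the ko, against 110, 109, 113 and 109 (-0.18, interval -0.48 to 0.11), and without the ko array at 127 it passed as lower (-0.31, adjusted p = 0.04923). The median of the 8 members was 0.11, against 0.01 for all genes and 0.04 for genes with a mean intensity of at least 16.

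Between the siRNA groups none of the 8 passed, where 1.79% of 14030 genes passed (0.649% higher, 1.14% lower). Here 4 members had an unadjusted p under 0.05, a cut at which all genes were not counted. Prox1 was 46, 35, 34 and 27 on arrays labelled IRE1 siRNA, against 56, 68, 56 and 55 on those labelled luciferase siRNA. The groups did not overlap, and the log2 difference was -0.75 (SE 0.16, adjusted p = 0.07724). It passed with the common median (-0.81, adjusted p = 0.006421) and with the filter at 16 (adjusted p = 0.01611). Hnf4a did not overlap either, at 708, 791, 738 and 702, against 624, 655, 676 and 689 (0.15, SE 0.05, adjusted p = 0.1997), and 6.74% of all genes had groups that did not overlap.

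A single array decided Foxa1 and Foxa2 in this experiment, but not Foxa3. Foxa1 was 37, 128, 104 and 108 on arrays labelled IRE1 siRNA, against 42, 46, 49 and 48 on those labelled luciferase siRNA. Foxa2 was 45, 99, 82 and 96, against 47, 42, 60 and 51. Replicate 1 of the IRE1 siRNA label lay with or below the luciferase arrays in both genes, and the other 3 lay above all of them. As deposited, the log2 difference was 0.89 for Foxa1 (SE 0.37, adjusted p = 0.3243) and 0.63 for Foxa2 (SE 0.26, adjusted p = 0.3106). Without replicate 1 it was 1.29 for Foxa1 (adjusted p = 0.002384), 0.89 for Foxa2 (0.04223) and -0.88 for Prox1 (0.03044), so 3 members passed. Onecut1 was 14 on that array as well, with 70, 58 and 137 on its fellows, against 22, 11, 12 and 14. On the same array Ern1 was 169, close to the other IRE1 siRNA arrays. Cebpa differed by 0.05, Foxa3 by 0.22, Nr5a2 by 0.03 and Onecut2 by 0.27, with overlapping arrays.

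**Figure D3:**
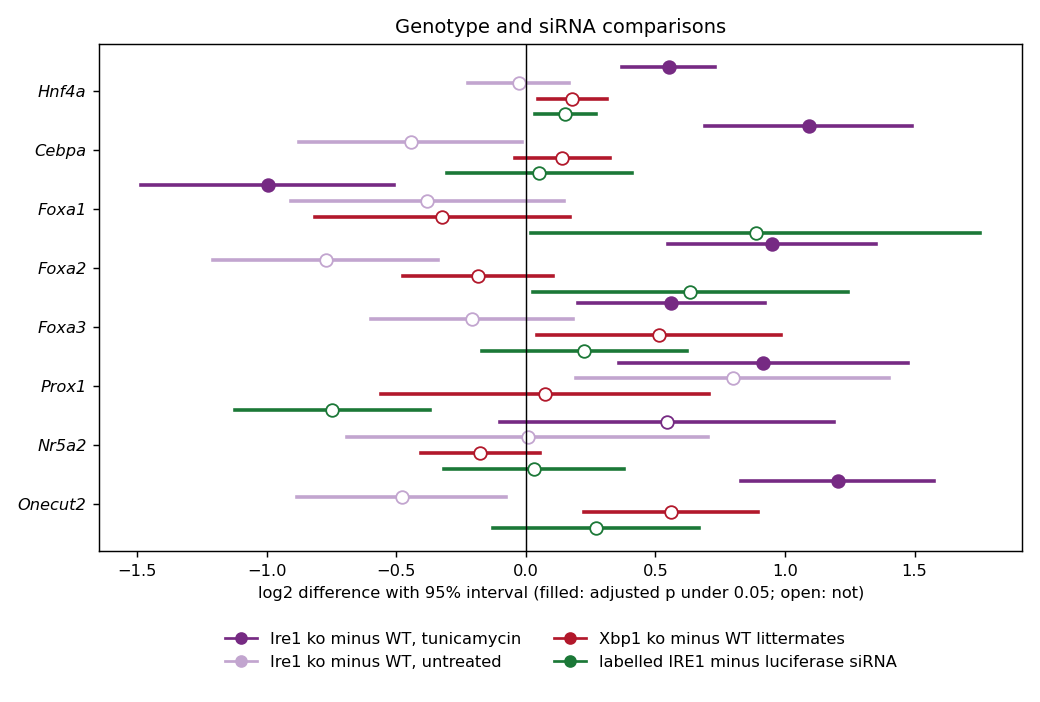
Log2 differences with 95% intervals for 4 comparisons: Ire1 ko minus WT after tunicamycin, Ire1 ko minus WT untreated, Xbp1 ko minus WT littermates, and arrays labelled IRE1 siRNA minus those labelled luciferase siRNA. Filled points (adjusted p under 0.05) appear only in the first comparison, for 7 of the 8 factors, and Foxa1 is the 1 below 0.

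The 8 genes had 15 probe sets in all, 1 each for 5 genes and several for Hnf4a, Prox1 and Onecut2. For Hnf4a the 3 other probe sets also gave a higher value in the Ire1 ko after tunicamycin, by 0.91, 0.70 and 0.49, the last of them with group means of 15 to 51.75 and not past the threshold (adjusted p = 0.09431). They differed on tunicamycin in WT, where the log2 difference was -0.22, 0.06 and 0.15, against -0.18 for the probe set used. The difference between responses was 0.89 (called), 0.68 (adjusted p = 0.1819) and 0.59 (adjusted p = 0.2645). For Onecut2 the other probe sets fell in WT by 1.58 and 1.47 and in Ire1 ko by 0.88 and 0.86, all past the threshold, so the Ire1 ko fall that missed the threshold on the probe set used was called on both. Their difference between responses was smaller, 0.69 (adjusted p = 0.04962) and 0.61 (adjusted p = 0.17), and after tunicamycin the ko was higher by 0.58 and 0.40 (adjusted p = 0.1168 for the last). The treated ko and WT means were 14 and 9.25 on the first and 11 and 8.5 on the second. All of these are under 16, where fold changes are compressed. The second Prox1 probe set gave 0.92 between the treated genotypes, and the remaining one, with a highest value of 9, lay at the floor.

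**Figure D4:**
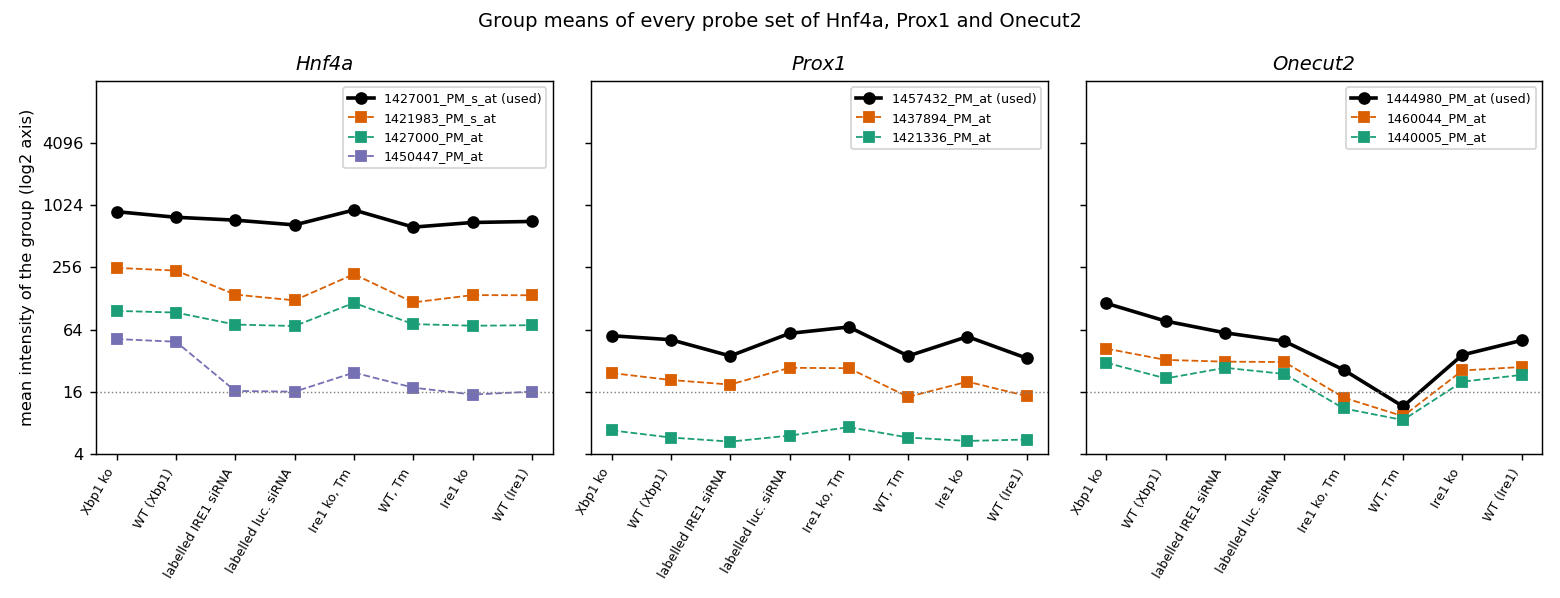
Group mean intensity (log2 axis) of each probe set of Hnf4a, Prox1 and Onecut2, with the one used in black. The dotted line marks an intensity of 16. In the Ire1 experiment each Hnf4a probe set is highest in tunicamycin Ire1 ko, while 2 of the 4 are higher still in the Xbp1 experiment; the Onecut2 probe sets are low in tunicamycin WT, and one Prox1 probe set is at the floor throughout.

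Some levels followed the experiment rather than a group, and these differences were not tested because age, time and handling differ with the experiment. Nr5a2 lay between 210 and 281 on all 8 arrays of the Xbp1 experiment, against 75 to 199 on the 23 others. Foxa1 lay between 92 and 196 on the first 8, against 18 to 128 on the 23. One Hnf4a probe set averaged 48.75 in WT littermates of Xbp1 ko and 16 in untreated WT littermates of Ire1 ko, groups of the same age and feeding state by label. Onecut1 was 86 to 308 in the Xbp1 experiment and 11 to 137 in the siRNA experiment.

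Among 21 other liver transcription factors of the list that were measured, 4 rose and 9 fell with tunicamycin in WT livers, with a median of -0.26, where 18.5% of all genes rose and 17.6% fell. Those furthest apart were Nr0b2, a co-repressor of nuclear receptors (-4.57), Onecut1 (-3.90), Ppara, the regulator of fatty acid oxidation (-2.84), and Atf5, a stress-responsive factor (2.28). In Ire1 ko livers 6 rose and 7 fell, where 17.4% of all genes rose and 10.3% fell. Nr0b2 (-2.76), Atf5 (2.52), Cebpd (2.17) and Cebpg (1.94) led them. After tunicamycin 5 were higher and 0 lower in the ko than in WT, against 9.68% and 8.5% of all genes. The 5 were led by Nr0b2 (1.88), the bile acid receptor gene Nr1h4 (0.99), Ppara (0.81) and Cebpb (0.80). The difference between responses (Ire1 ko minus WT) passed for 5, all with positive values, including Nr0b2 (1.81), Ppara (0.96) and Nr1h4 (0.87). Another of the 5 was Onecut1 (2.08), which was at the floor in both treated groups and lower in the ko when untreated. In Xbp1 ko the called gene was Nr1h4 (0.59, higher). Under quantile normalization and the common median 4 rose and 11 fell in WT, and 7 were higher in the treated ko.

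Listed targets of these factors were read next. The lists were written from general knowledge, with earlier results of these data known, and share some genes. The activity of the factors was not tested. Of 19 HNF4A targets 16 fell and 0 rose with tunicamycin in WT livers, against 17.6% and 18.5% of all genes. The median was -0.79, and both scalings gave the same counts. Those that fell include F7, a clotting factor (-1.77), Gjb1, the hepatocyte gap junction protein (-1.70), Slc10a1, the bile acid importer (-1.55), and Apoc2, an activator of lipoprotein lipase (-1.48). In Ire1 ko livers 12 fell, with a median of -0.50, where 10.3% of all genes fell. This count was 13 with quantile normalization and 16 with the common median, so its distance from the WT count depends on scaling. The falls were led by Cyp8b1 (-2.12), Otc of the urea cycle (-1.16), Slc10a1 (-1.14) and F7 (-1.06). After tunicamycin 8 were higher in the ko than in WT, among them Pklr (1.46), Gjb1 (0.90) and Apoc2 (0.66), and Cyp8b1 was lower (-1.58). Over all genes 9.68% were higher and 8.5% lower. With the common median 5 of the targets were higher. The difference between responses passed for Gjb1 (0.96), F7 (0.71) and Apoc2 (0.67). In Xbp1 ko livers Gjb1 (-1.94), F7 (-1.45) and F12 (-0.58) fell, while Hnf4a itself did not pass.

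For C/EBPα 11 targets were tested, and 6 fell and 1 rose with tunicamycin in WT, where 36.1% of all genes passed. Gys2, the liver glycogen synthase (-2.30), Agt, angiotensinogen (-0.92), Fasn, fatty acid synthase (-0.78), and Cyp2d22 (-0.74) led the fall. In Ire1 ko 5 fell and 1 rose, led by Gys2 (-1.83) and Fasn (-1.63), where 27.7% of all genes passed. The difference between responses passed for 0 of the 11 as deposited. Among 10 FOXA targets 4 fell and 2 rose in WT, against 17.6% and 18.5% of all genes, and 6 fell with the common median. The called genes were led by Tfrc, the transferrin receptor (-2.25), and Cyp7a1, which starts bile acid synthesis (-1.89), which were lower, and Igfbp1 (1.80) and Tat (0.71), which were higher. In Ire1 ko Tfrc (-2.21) and Slc27a5 (-0.25) fell and Igfbp1 (2.50) and Tat (0.78) rose. Among 9 NR5A2 targets 7 fell in WT, against 17.6% of all genes, while Nr5a2 itself did not pass. The 7 were led by Nr0b2, the sterol exporters Abcg8 (-3.84) and Abcg5 (-3.04), and Cyp7a1. In Ire1 ko 5 of the 9 fell, against 10.3% of all genes, Abcg8 by 3.23 and Abcg5 by 3.03. That count was 6 with quantile normalization and 7 with the common median.

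Only 4 of the listed targets of PROX1 and the ONECUT factors were tested: Cyp7a1, Cyp8b1, Ttr and Igfbp1. After tunicamycin Igfbp1 (1.97) and Cyp7a1 (2.28) were higher and Cyp8b1 was lower in Ire1 ko than in WT. Of 8 genes of fetal liver and progenitors, 0 passed in WT after tunicamycin, and 1 fell in Ire1 ko: Dlk1 (-0.26), at 5 on all 4 treated arrays, against 6 untreated. Afp was 5 to 7 in all treated livers, the floor of the scale.

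**Figure D5:**
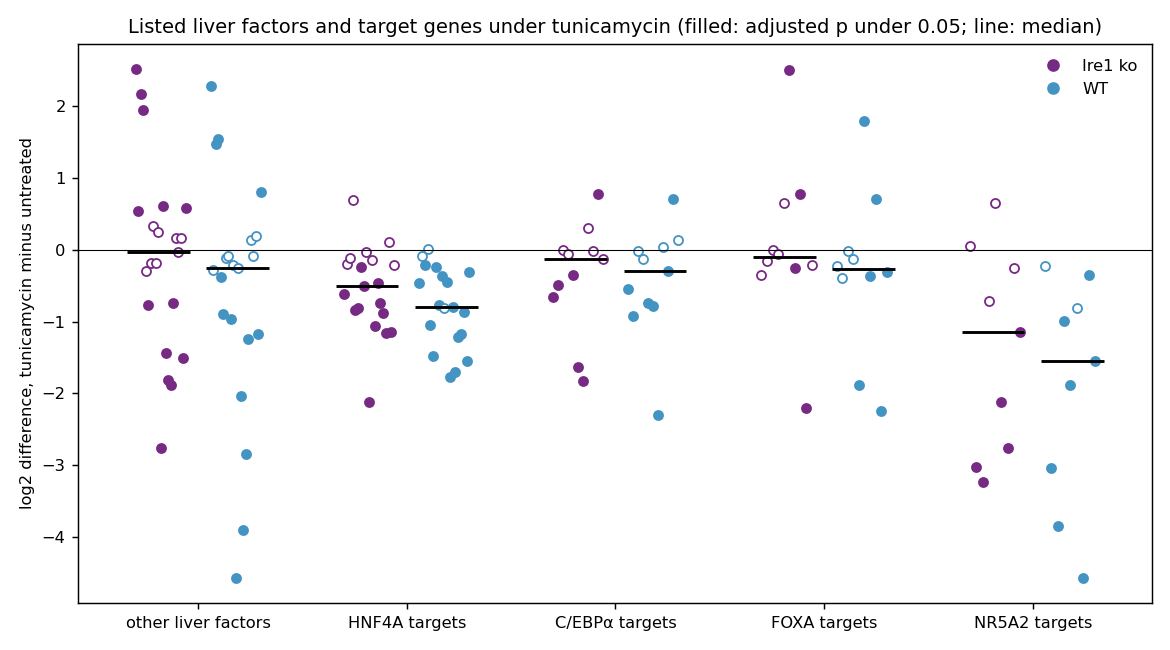
Log2 difference between tunicamycin and untreated livers of each tested gene in 5 lists, in Ire1 ko (purple, left) and WT (blue, right), with the list's median as a line and genes past an adjusted p of 0.05 filled. The WT medians lie at -0.26 for other liver factors, -0.79 for HNF4A targets and -1.55 for NR5A2 targets.

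Genes with the most similar pattern to each member were sought over the 8 group means, by the root mean square difference in log2 after centring, among 5323 candidates; the 8 points share arrays and normalization. Foxa2 was nearest to Gldc, the glycine cleavage enzyme (0.26), Rnf144b (0.30) and Nr2f2, a nuclear receptor (0.31). Cebpa was nearest to Arhgap29, Tbl1xr1 and Slc29a1 (0.17 each), and Onecut2 to Rsad2 (0.27), Suox (0.27) and Nr2f2 (0.31). Foxa3 was closest to Nipa2 (0.10), and Nr5a2 to Ncoa4 (0.11), whose means were 251 in Xbp1 ko and 283 in their WT littermates and at most 171 in the other groups. For Foxa1 the nearest were Adap2 (0.28), Rbm47 (0.31) and Tmem131 (0.35), and for Prox1 they were Sri (0.25), Itgav (0.27) and Prxl2c (0.27). The median over all candidates was 1.27 for Foxa2, 0.86 for Cebpa and 0.53 for Prox1. Hnf4a was left out, since its group means spanned less than 1 on the log2 scale.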

How the data were processed

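Liver RNA of 31 arrays was measured as probe set intensity. Per the submitters' processing notes, the intensity values the authors deposited were made with RMA and affy, with versions not given; no source used here says if all 31 were normalised together. The deposited intensities are whole numbers on a linear scale, and log2 of each was taken before any test. Each of 17097 genes was read from the probe set with exactly 1 symbol and the highest mean (28898 of 45037 probe sets had 1 symbol, 551 several, 15588 none in the table used). Group differences were fitted in R 4.3.3 by limma 3.58.1, using lmFit and a trended eBayes. Tests were two-sided, Benjamini-Hochberg adjustment covered every gene in the fit, and 0.05 was the threshold for an adjusted p. Genes entered if 3 or more arrays of the fit exceeded the 30th percentile. The Xbp1 and siRNA experiments each had a fit of 8 arrays, and the Ire1 experiment 1 fit of 15. Errors are SE for log2 differences.

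The p values measure the spread between arrays labelled as biological replicates. Correlations within groups lay between 0.9841 and 0.9934, and no 2 arrays were identical (0 pairs). The number of arrays limits the precision.

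All 8 members were named in every comparison, Ern1, Xbp1 and Onecut1 where a result turned on them, with up to 4 called genes of each list and the 3 most similar genes of each member. The members and lists were chosen with earlier results of these data known. Alternatives were another scaling, filter, offset, probe set, variance prior or fit, the replicate block, exchanged siRNA labels and leaving out each array. The fits were tested on simulated data.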

Additional observations from a re-analysis of the deposited data

Results flagged for a closer look

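Within groups of 4 arrays, 6 single values stood apart from their fellows by more than Dixon's critical value, of 56 groups checked; chance flags about 1 in 20. Hnf4a was 842 on replicate 4 of the WT littermates of Xbp1 ko, where the others were 760 to 773. Foxa2 was 127 on replicate 1 of Xbp1 ko (others 87 to 91). Prox1 was 68 on replicate 2 of the luciferase siRNA label (others 55 to 56). Nr5a2 was 199 on replicate 1 of tunicamycin WT (others 81 to 98). Onecut2 was 65 on replicate 2 of the WT littermates of Xbp1 ko (others 80 to 83) and 58 on replicate 1 of untreated WT in the Ire1 experiment (others 47 to 48).

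The response to tunicamycin differed between Ire1 ko and WT livers, by the test of the difference itself, for 4 members: Hnf4a (0.58), Foxa2 (1.72), Cebpa (1.54) and Onecut2 (1.68), all on the log2 scale.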

How the results depend on the processing

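Of 205 called member values under other settings 193 kept their direction and call, 12 lost the call and 0 reversed. With 1 array left out, 298 of 315 were kept, 17 were lost and 0 reversed. Every array of the Ire1 experiment was left out in turn for each of its comparisons. Many of the 315 fits therefore lack an array outside the 2 groups compared, which cannot move their log2 difference and raises the share kept. Over the settings that left out no array, 6 to 7 members were called between treated genotypes, 3 to 5 for tunicamycin in WT, 5 to 6 in Ire1 ko and 4 to 5 for the difference between responses. The number moved by over 1.5 times in these: in the siRNA comparison it was 1 with the common median and 1 with the filter at 16, in Xbp1 ko 1 with that filter, in untreated Ire1 ko 1 with the added 16, and for tunicamycin in WT 3 with no filter. Leaving out 1 array gave 0 to 1 members called in Xbp1 ko, 0 to 3 for siRNA, 0 to 0 in untreated Ire1 ko, 5 to 7 between treated genotypes, 3 to 5 and 5 to 6 for tunicamycin in WT and Ire1 ko, and 4 to 5 for the difference between responses. Genes called numbered 571 in Xbp1 ko in one fit over 31 arrays (380 in its own fit) and 397 for siRNA with the filter at 16 (251 without). They numbered 237 in Xbp1 ko without WT replicate 1, and 95 in untreated Ire1 ko without ko replicate 3 (143 with it).

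The values that reversed belong to members that were not called. With quantile normalization Nr5a2 was -0.0237 for siRNA and -0.10 for tunicamycin in WT, and with the common median -0.0316 and -0.12. The common median gave -0.0109 for Cebpa under siRNA and 0.0407 for Hnf4a in untreated Ire1 ko. Other Hnf4a probe sets gave 0.0178 and 0.0243 in untreated Ire1 ko and 0.056 and 0.15 for tunicamycin in WT. Exchanging the siRNA labels gives -0.15 for Hnf4a, -0.89 for Foxa1, -0.63 for Foxa2, -0.22 for Foxa3, -0.0521 for Cebpa, 0.75 for Prox1, -0.0314 for Nr5a2 and -0.27 for Onecut2. Leaving out 1 array gave -0.19 to 0.20 for Prox1 in Xbp1 ko, -0.0744 to 0.16 for Cebpa and -0.0752 to 0.12 for Nr5a2 under siRNA, -0.0946 to 0.0207 for Hnf4a and -0.38 to 0.28 for Nr5a2 in untreated Ire1 ko, -0.17 to 0.35 for Prox1 and -0.28 to 0.19 for Nr5a2 with tunicamycin in WT, and -0.0578 to 0.47 for Prox1 in the difference between responses. Where a call changed, the cause was not tested.

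Same-numbered arrays did not deviate together throughout (correlations -0.18 to 0.29), and the main fits did not pair them. Correlations between differently numbered arrays were not computed, so whether the numbers pair the mice was not tested. With the replicate block 197 genes were called in Xbp1 ko and 43 for siRNA, and the number of members called changed in none of the 7 comparisons (7 of 8 between treated genotypes, for example). Low signal limits Foxa2 and Onecut2 after tunicamycin.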
